A study of Penicillium oxalicum with 6 samples.

Results

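Cytochrome P450 enzymes are haem proteins that insert an oxygen atom from molecular oxygen into organic substrates, drawing electrons from NADPH through a flavoprotein reductase. In filamentous fungi they build sterols, hydroxylate fatty acids, break down foreign compounds and tailor secondary metabolites, and *P. oxalicum* is known as a producer of indole alkaloids and polyketides. In fungal genomes, genes for secondary metabolism often lie side by side, with P450 genes next to the gene of a backbone enzyme that makes the first scaffold.

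The genes described here are the 24 cytochrome P450 genes among the 1114 genes that the study listed as differing between its strains, out of 9834 genes measured. They were taken as every listed gene whose InterPro annotation holds the cytochrome P450 entry, IPR001128. The study chose its list from these same libraries by a log2 ratio of mean FPKM of at least 1 in size and a probability of at least 0.8. FPKM is a level per length, the number of fragments scaled to the length of the gene and to the depth of the library. The differences between the strains given below are therefore a description of genes picked for that difference. A call rule is applied to them below only to say which genes stay past it when a library or a setting is changed, and no p-value is given for any of them. P450 genes outside the list were not analysed here. By the ratio of mean FPKM, the members closest to the threshold were *POX08079* (log2 ratio 1.01), *POX00945* (-1.11) and *POX04573* (1.14).

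The libraries came from mycelia of the mutant Δ*PoxMKK1* and of the control strain Δ*PoxKu70*, with 3 libraries each, labelled as replicates F, S and T. Δ*PoxMKK1* lacks *POX07948*, the gene of a kinase related to Ste7 of the yeast mating and filamentation pathway, replaced by a G418 resistance gene in the Δ*PoxKu70* background. Δ*PoxKu70*, made from the wild-type strain HP7-1, carries a hygromycin resistance gene in place of the Ku70 homologue *POX01583*, a replacement that Δ*PoxMKK1* shares. Both strains were grown on glucose and then moved to Avicel, a microcrystalline cellulose at 2%, for 24 h before RNA was taken.

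The total expected count, an estimated number of reads, was between 13687087 and 14042791 per library. *POX07948* had 2, 1 and 0 counts in libraries F, S and T from Δ*PoxMKK1*, against 656, 592 and 753 in Δ*PoxKu70*. *POX01583* had between 942 and 1365 counts in all 6 libraries, although both strains are described as lacking it. Across genes, which are not independent replicates, Pearson's r of log2(FPKM + 0.5) was 0.983 to 0.989 among the Δ*PoxMKK1* libraries, 0.968 to 0.981 among the Δ*PoxKu70* libraries and 0.82 to 0.874 between the strains. All 24 P450 genes had whole counts in every library, with no fraction of a read shared out to other genes. Since whole mycelia were sequenced, a change in the share of a cell type cannot be told apart from a change in RNA per cell.

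The 24 listed P450 genes together took more of the counts in Δ*PoxMKK1*, with 0.618, 0.604 and 0.613% in its 3 libraries, against 0.373, 0.318 and 0.376% in Δ*PoxKu70*. They were listed for a difference in these libraries, so this share says nothing of P450 genes as a family. The P450 genes that carried most of this level also differed. The 19 genes with a higher mean in Δ*PoxMKK1* summed to 3281, 3131 and 3098 FPKM there and to 723, 383 and 1069 FPKM in Δ*PoxKu70*. The 5 lower genes summed to 351, 313 and 332 FPKM there and to 1508, 1550 and 999 FPKM in Δ*PoxKu70*. These 5 genes made up 9.10 to 9.67% of the summed P450 level in the Δ*PoxMKK1* libraries and 48.3 to 80.2% in the Δ*PoxKu70* libraries. The genes were split by the direction of their difference in these same libraries. The direction of each sum was therefore fixed in advance, and only the sizes are given as a description.

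No P450 gene had a mean below 10 FPKM in Δ*PoxMKK1*, whereas 7 of the 24 did in Δ*PoxKu70*. The median of the mean levels was 86.5 FPKM in Δ*PoxMKK1* and 41.8 FPKM in Δ*PoxKu70*. The median log2 fold change of the 24 genes was 1.84, against 0.01 over all 8749 genes that edgeR tested. Since the 24 genes were chosen for a log2 ratio of at least 1 in size, nothing is read from this gap. By the call rule used here, which is a Benjamini-Hochberg adjusted p below 0.05 in the quasi-likelihood test of edgeR and a log2 fold change of at least 1 in size, 21 of the 24 genes were called. Of all tested genes, 19.8% were called. The 16 genes called higher stand beside 10.8% of all tested genes, and the 5 called lower beside 8.93%, but the rule that chose the genes used this same contrast and nothing is read from these counts. The libraries of one strain all lay above those of the other in 23 of the 24 genes, as they did in 59.0% of all tested genes. The genes not called were *POX02985*, *POX05853* and *POX08079*.

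**Figure D1:**
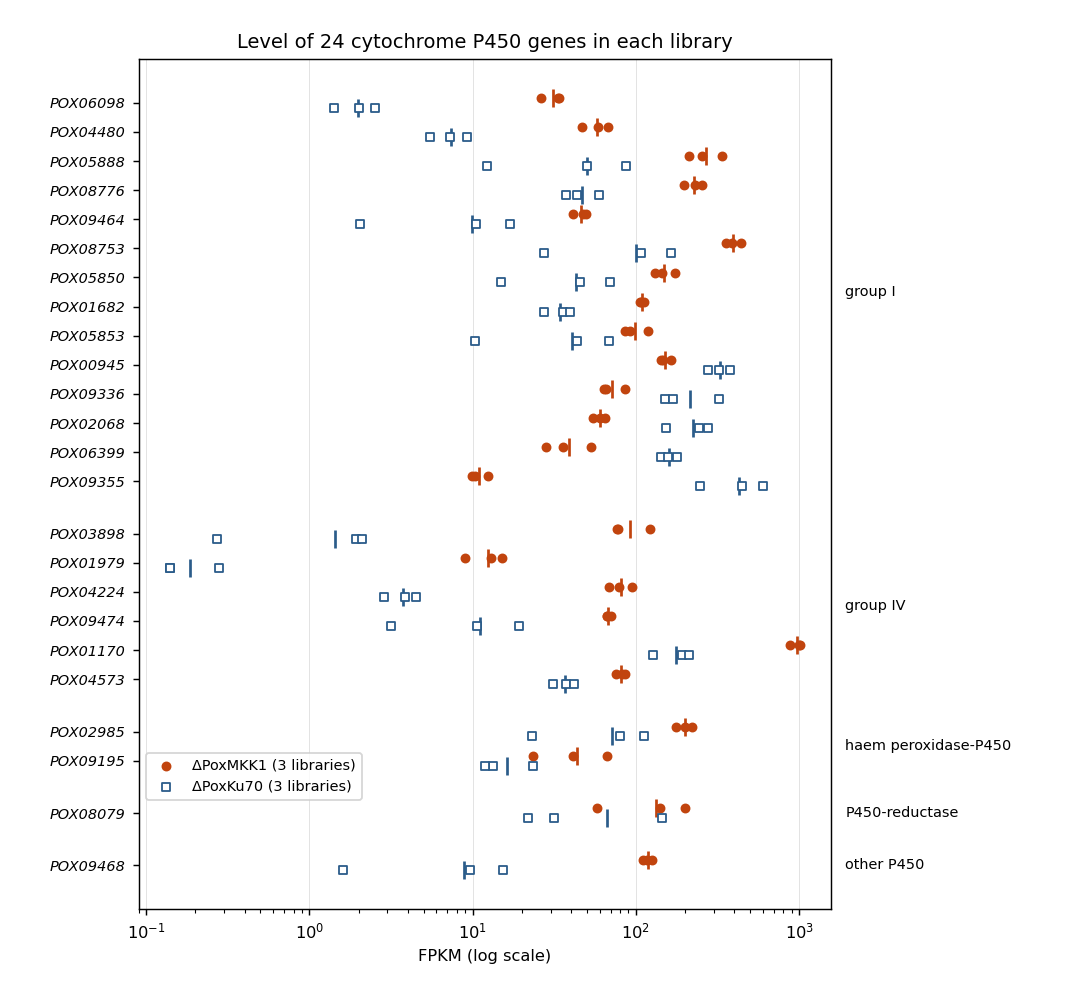
Level of each P450 gene in each library, in FPKM on a log axis, with filled circles for the 3 Δ*PoxMKK1* libraries, open squares for the 3 Δ*PoxKu70* libraries and a tick at each strain's mean. Only *POX08079* has overlapping strains, and the open squares spread wider than the filled circles in many genes.

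The InterPro entries divide the 24 genes into classes. E-class group I (IPR002401) held 14 genes, and E-class group IV (IPR002403) held 6. These classes are defined on sequence, and neither names a substrate. A further 2 genes encode a haem peroxidase joined to a P450, 1 encodes a P450 joined to its own reductase, and 1 has the general entry and the conserved site alone. The gene with its own reductase, *POX08079*, also carries IPR002401 but is not counted among the 14 group I genes. The conserved site of the haem-binding cysteine (IPR017972) was listed for 17 of the 24. The 6 group IV genes were all higher in Δ*PoxMKK1*, whereas 9 of the 14 group I genes were higher and 5 were lower, so every lower P450 gene belonged to group I.

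The length that a gene's count and FPKM imply, an effective length that leaves out bases where no fragment can start, set the fusion genes apart. It was 3334, 3346 and 3453 bases for the 3 fusion genes, and 1249 to 1948 bases for the other 21. The shortest was *POX09468*, at 1249 bases. Over all genes the median was 1170 bases.

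Among the group IV genes, *POX01170* was the most abundant P450 gene in Δ*PoxMKK1*. In the order F, S and T, which all values below follow, its FPKM was 997, 880 and 1011 in Δ*PoxMKK1*, against 190.3, 126 and 213 in Δ*PoxKu70*. Every mutant library was over 4 times the highest control library, and the gene ranked 175 of 9834 in Δ*PoxMKK1* against 922 in Δ*PoxKu70*. The log2 fold change was 2.39 (standard error 0.212). It alone made up 25.5 to 29.5% of the summed P450 level in Δ*PoxMKK1* and 6.54 to 10.3% in Δ*PoxKu70*.

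The largest differences, also in group IV, were in 2 genes near silence in the control strain. *POX01979* had 191, 275 and 320 counts in Δ*PoxMKK1*, against 6, 3 and 3 counts in Δ*PoxKu70*. The ratio of summed counts, scaled to the library totals of each strain, was 65.9, with a 95% Clopper-Pearson interval of 37.5 to 128 for counting error alone. *POX03898* had an FPKM of 76.5, 122 and 77.5 in Δ*PoxMKK1*, against 1.93, 0.27 and 2.11 in Δ*PoxKu70*. Both genes had a log2 fold change of 5.94, with standard errors of 0.345 and 0.545. On a log2 scale of FPKM plus a pseudocount, the difference of *POX01979* was 5.45, 4.20 and 3.47 for pseudocounts of 0.1, 0.5 and 1, and that of *POX03898* was 5.33 for a pseudocount of 1. They differed in level, since *POX01979* stayed at 12.4 ± 3.15 FPKM in Δ*PoxMKK1*, where *POX03898* averaged 92.0 ± 26.0 FPKM (SD, n = 3 each).

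*POX04224* had 94.4, 79.0 and 68.3 FPKM in Δ*PoxMKK1*, against 3.85, 2.85 and 4.48 FPKM in Δ*PoxKu70* (log2 fold change 4.37, standard error 0.201). *POX09474* had 70.3, 66.2 and 66.1 FPKM in Δ*PoxMKK1* and 10.6, 3.17 and 19.3 FPKM in Δ*PoxKu70*. In *POX09474* the mutant libraries lay close together and the control libraries lay far apart. *POX04573* was the smallest difference of the class, at 82.0, 85.9 and 75.2 FPKM in Δ*PoxMKK1* against 31.1, 37.4 and 41.9 FPKM in Δ*PoxKu70*. Its log2 fold change was 1.08 (standard error 0.121), and 0.98, below the fold minimum, when replicate F of Δ*PoxKu70* was left out.

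Of the group I genes that were higher in Δ*PoxMKK1*, *POX06098* differed most and was low in the control strain. It had 26.3, 33.5 and 33.9 FPKM in Δ*PoxMKK1*, against 1.42, 2.02 and 2.51 FPKM in Δ*PoxKu70* (log2 fold change 3.92, standard error 0.208). *POX04480* had 46.5, 67.3 and 58.3 FPKM in Δ*PoxMKK1* against 7.28, 5.47 and 9.27 FPKM in Δ*PoxKu70*. In both, the lowest mutant library was over 5 times the highest control library. *POX08776* had 229, 254 and 197 FPKM in Δ*PoxMKK1* and 59.1, 43.3 and 37.4 FPKM in Δ*PoxKu70*, and *POX01682* had 113, 105 and 108 FPKM in Δ*PoxMKK1* against 35.7, 27.2 and 39.3 FPKM in Δ*PoxKu70*. These 4 genes were called in every fit that left out 1 library.

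*POX08753* was the most abundant group I gene in Δ*PoxMKK1*. It had 440.3, 388 and 358 FPKM in Δ*PoxMKK1*, against 107, 27.2 and 165 FPKM in Δ*PoxKu70* (log2 fold change 1.93, standard error 0.558). *POX05888* had 337, 254 and 211 FPKM in Δ*PoxMKK1*, against 50.5, 12.2 and 86.8 FPKM in Δ*PoxKu70* (log2 fold change 2.37, standard error 0.619). In both genes replicate S of Δ*PoxKu70* was the lowest library by far. Neither was called when replicate F of either strain was left out, although their log2 fold changes without the mutant and without the control library were 1.85 and 2.01 for *POX08753* and 2.17 and 2.40 for *POX05888*. Leaving out replicate S or T from Δ*PoxMKK1* also took away the call of *POX08753*, at 1.95 and 2.01. *POX05888* came to 2.996 when replicate T of Δ*PoxKu70* was left out, and to 1.911 without replicate S of that strain.

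The 5 lower genes, all of group I, were called in every fit that left out 1 library. *POX09355* stood far from the rest. It had 9.95, 10.3 and 12.4 FPKM in Δ*PoxMKK1*, against 444, 598 and 247 FPKM in Δ*PoxKu70*, where it was the most abundant P450 gene. The mean was 39.5 times higher in Δ*PoxKu70* (log2 fold change -5.37, standard error 0.373).

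*POX06399* had 28.1, 35.6 and 53.3 FPKM in Δ*PoxMKK1* and 141, 179 and 156 FPKM in Δ*PoxKu70* (log2 fold change -2.09, standard error 0.238). *POX02068* had 65.0, 60.3 and 54.5 FPKM in Δ*PoxMKK1* and 275, 243 and 152 FPKM in Δ*PoxKu70* (log2 fold change -1.97, standard error 0.237). *POX09336* had 85.1, 64.1 and 65.3 FPKM in Δ*PoxMKK1* and 324, 151 and 169 FPKM in Δ*PoxKu70*. In *POX09336* replicate F was the highest library of both strains. *POX00945* remained abundant in both strains, at 163, 143 and 146 FPKM in Δ*PoxMKK1* and 323, 379 and 275 FPKM in Δ*PoxKu70* (log2 fold change -1.17, standard error 0.154).

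**Figure D2:**
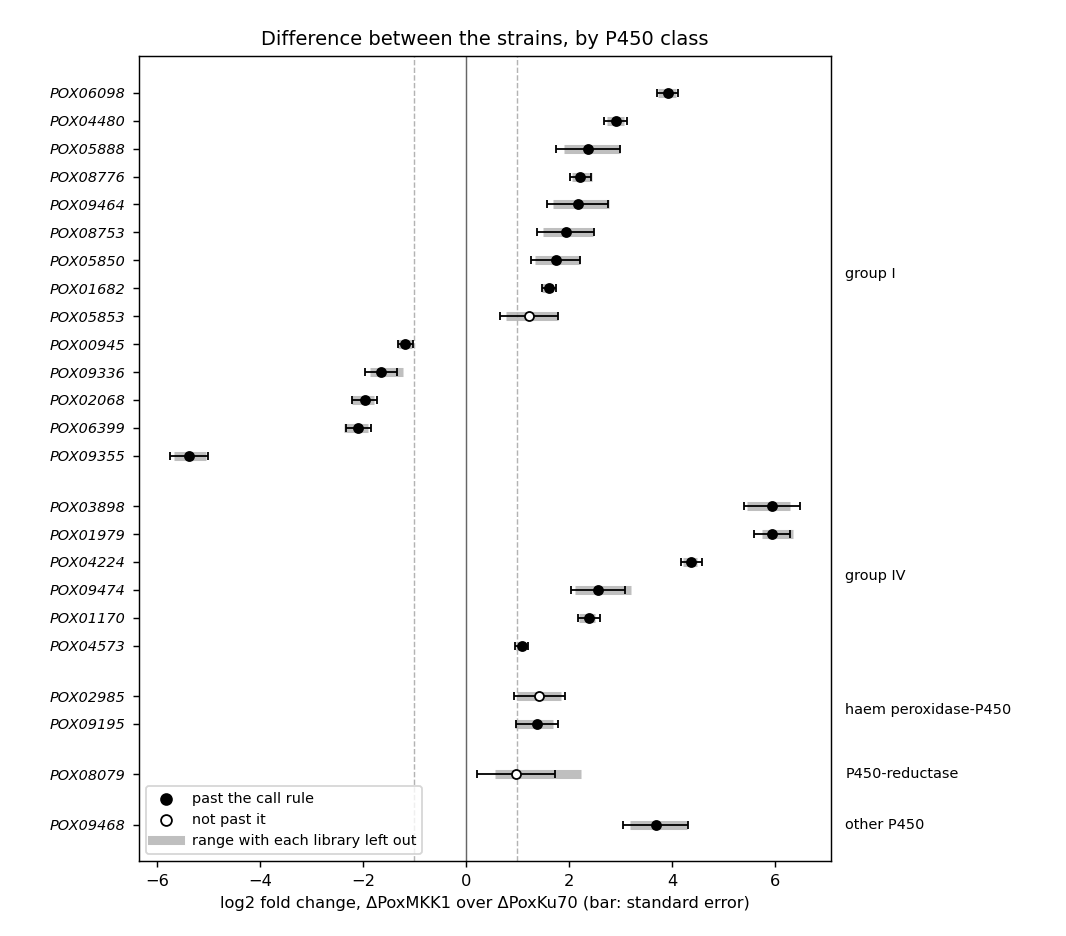
Log2 fold change of Δ*PoxMKK1* over Δ*PoxKu70* for each P450 gene by class, with the standard error as a bar and the range over fits that leave out 1 library in grey; dashed lines mark the fold minimum and open circles the genes that were not called. Every group IV gene lies above 0, from 1.08 for *POX04573* to 5.94 for *POX03898* and *POX01979*, and group I holds both directions, down to -5.37 for *POX09355*.

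The 3 genes of a P450 joined to another enzyme had log2 fold changes between 0.97 and 1.42. Enzymes built of a haem peroxidase and a P450 are known in *Aspergillus* as the Ppo proteins, which oxygenate fatty acids to oxylipins that act on sporulation. *POX02985* had 221, 199 and 176 FPKM in Δ*PoxMKK1*, against 80.1, 23.1 and 111 FPKM in Δ*PoxKu70* (log2 fold change 1.42, standard error 0.495). *POX09195* had 23.3, 41.0 and 66.2 FPKM in Δ*PoxMKK1*, against 13.3, 11.9 and 23.3 FPKM in Δ*PoxKu70* (log2 fold change 1.37, standard error 0.404).

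In *POX09195* the lowest mutant library and the highest control library all but met, and the call was lost when replicate S or T of Δ*PoxMKK1* was left out (1.41 and 0.95), and likewise for replicate F or S of Δ*PoxKu70* (1.26 and 1.199). *POX02985* was not called with all libraries. It was called at 1.85 without replicate T of Δ*PoxKu70*, and was not called without replicate S of that strain, at 1.0. With all libraries it was called by DESeq2, at 1.39, and by limma on log2(FPKM + 0.5), at 1.73.

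*POX08079* joins a P450 of group I to flavodoxin, FAD-binding and NADPH-binding reductase domains. A P450 of this build in *Fusarium oxysporum*, P450foxy, hydroxylates fatty acids without a separate reductase. *POX08079* had 57.9, 141 and 200.5 FPKM in Δ*PoxMKK1*, against 21.9, 31.3 and 145 FPKM in Δ*PoxKu70*. Replicate T was the highest library in both strains, and replicate T of Δ*PoxKu70* lay above replicates F and S of Δ*PoxMKK1*. Its log2 fold change was 0.97 (standard error 0.753) and moved to 2.23 without replicate T of Δ*PoxKu70*, where the gene was called. Without replicate F or S of that strain it came to 0.556 and 0.636 and was not called. It was the most variable P450 gene in Δ*PoxMKK1*, with the highest library 3.46 times the lowest.

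The P450 genes varied more among the control libraries than among the mutant libraries. In Δ*PoxMKK1* the median ratio of the highest to the lowest library was 1.29 for the 24 genes, and 1.196 for the 8841 genes with a mean of at least 1 FPKM. In Δ*PoxKu70* the median ratio was 2.07 for the 24 genes and 1.29 for the 8841 genes. The ratio was above 3 for 1 P450 gene in Δ*PoxMKK1* and for 10 in Δ*PoxKu70*. The spread within a strain did not enter the study's fold threshold, but its probability came from these same libraries, so the spread too is given as a description.

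The control libraries differed in a shared way. Replicate T of Δ*PoxKu70* was the highest control library in 17 of the 24 genes (70.8%) and in 45.3% of the 8841 genes, and replicate S was the lowest in 16 (66.7%) and in 32.0%. Replicate T was more than 3 times replicate S in 10 of the 24 genes (41.7%), a fold chosen after the values were seen, against 3.44% of the 8841 genes. In Δ*PoxMKK1* the same fold between these replicates occurred in 0 of the 24 genes and in 0.498% of the 8841. The 10 genes were *POX02985*, *POX03898*, *POX05850*, *POX05853*, *POX05888*, *POX08079*, *POX08753*, *POX09464*, *POX09468* and *POX09474*, with ratios from 4.62 in *POX08079* to 9.50 in *POX09468*. All 10 are among the 19 genes with a higher mean in Δ*PoxMKK1*. None of the 5 lower genes had replicate T as its highest control library, and in 3 of them it was the lowest. These are counts over genes, several of which have neighbouring numbers, and what sets the control libraries apart was not tested. The share among other listed genes that were higher in Δ*PoxMKK1* was not counted, so the pattern cannot be called particular to P450 genes.

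**Figure D3:**
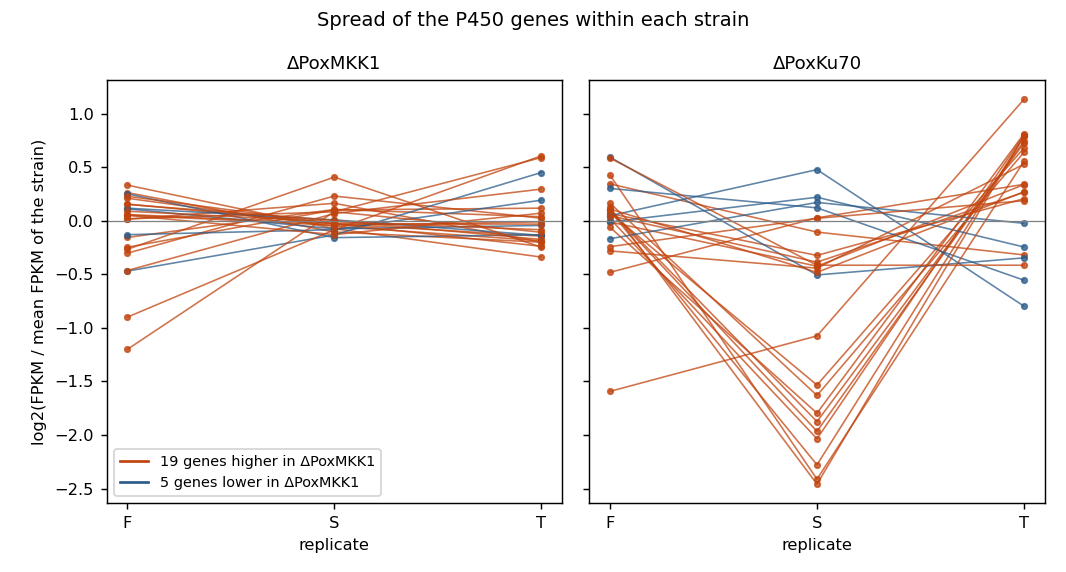
FPKM of each P450 gene in each replicate relative to its strain's mean, as log2, with Δ*PoxMKK1* on the left and Δ*PoxKu70* on the right; each line is a gene, coloured by its direction. In Δ*PoxKu70*, replicate S lies well below the other libraries for 9 of the genes that were higher in Δ*PoxMKK1*, while in Δ*PoxMKK1* all but a few lines stay near 0.

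Several P450 genes have numbers next to genes of secondary metabolism. The files give no positions, so gene numbers are used here as an order of identifiers only. Within 3 numbers of a P450 gene there were 136 other genes, of which 122 were tested and 54 (44.3%) were called, 37 higher and 17 lower, against 19.8% of all tested genes. Of these neighbours, 45 are in the study's list. Among the 77 tested neighbours outside the list 13 were called (16.9%), against 8.85% of the 7635 tested genes outside the list. All these neighbours lie beside genes chosen for a difference. Neighbours of other listed genes were not counted, so neither share can be tied to P450 genes. At least 1 neighbour was called in the direction of the P450 gene for 21 of the 24, and 3 or more for 11. *POX06098*, *POX08776* and *POX09195* had none. A neighbour called in the other direction lay near *POX00945*, *POX01682*, *POX04573*, *POX05888*, *POX08079* and *POX09355*. A neighbour shared by P450 genes was counted for each, and the same count was not made for all genes, so nothing is read from it.

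The longest such run held 3 P450 genes called higher, *POX09464*, *POX09468* and *POX09474*, between *POX09463* and *POX09474*. Its other genes carry entries for a terpene synthase domain (*POX09463*), a nonribosomal peptide synthetase (*POX09467*), a methyltransferase or its fold (*POX09465*, *POX09469*, *POX09473*), a FAD-dependent monooxygenase (*POX09470*), a transporter of the major facilitator family (*POX09471*) and an aromatic prenyltransferase (*POX09472*). Of its 12 genes, 11 were tested and 9 were called, all higher, with log2 fold changes up to 5.22 for *POX09467*. *POX09465* (1.70) and *POX09469* (1.09) were not called, and without replicate T of Δ*PoxKu70* they came to 2.35, which was called, and 1.73, which was not. Their lowest values with 1 library left out were 1.191 and 0.617. The paper names *POX09469* among genes known to regulate the production of plant-polysaccharide-degrading enzymes. *POX09466*, listed at 0 to 0.03 FPKM in every library, was not tested.

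*POX09464* had 41.2, 49.3 and 47.1 FPKM in Δ*PoxMKK1*, against 10.5, 2.03 and 17.0 FPKM in Δ*PoxKu70*. *POX09468* had 125, 117 and 111 FPKM in Δ*PoxMKK1*, against 9.65, 1.61 and 15.3 FPKM in Δ*PoxKu70*. The peptide synthetase gene *POX09467* had 52.8, 56.7 and 53.0 FPKM in Δ*PoxMKK1*, against 1.65, 0.32 and 2.21 FPKM in Δ*PoxKu70*. In these genes, as in *POX09474*, the control libraries ranked T, F and S from high to low, and the mutant libraries lay within a narrow band. The P450 genes of the run differed in size, with log2 fold changes of 2.17 (standard error 0.589) for *POX09464*, 3.68 (0.625) for *POX09468* and 2.56 (0.525) for *POX09474*. Leaving out replicate T of Δ*PoxKu70* moved all of them up, to 2.77 for *POX09464*, 4.29 for *POX09468* and 3.20 for *POX09474*. Leaving out replicate S of that strain moved all of them down, to 1.684, 3.187 and 2.125 in the same order. The call of *POX09464* was lost when replicate S (2.11) or T (2.15) of Δ*PoxMKK1* was left out, and for replicate F of Δ*PoxKu70* (2.23).

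*POX05850* and *POX05853* flank a gene with a condensation domain of peptide synthetases, *POX05851*, and a FAD-linked oxidase gene, *POX05852*. *POX05850* had 173, 144 and 131 FPKM in Δ*PoxMKK1*, against 45.3, 14.9 and 68.9 FPKM in Δ*PoxKu70*, and *POX05853* had 118, 91.8 and 85.9 FPKM in Δ*PoxMKK1* against 43.3, 10.4 and 67.9 FPKM in Δ*PoxKu70*. Both had their lowest value in replicate S of Δ*PoxKu70*. The log2 fold changes were 1.74 (standard error 0.479) and 1.23 (0.565), and the call of *POX05850* was lost when replicate F (1.62) or S (1.76) of Δ*PoxMKK1* was left out, and for replicate F of Δ*PoxKu70* (1.80). *POX05853* was called at 1.78 without replicate T of Δ*PoxKu70* and in no other fit that left out 1 library. It fell to 0.775, below the fold minimum, without replicate S of that strain. With all libraries DESeq2 called *POX05853*, at 1.21. Limma on log2(FPKM + 0.5), at 1.62, and the replicate block, at 1.54, did not. Of the 9 genes from *POX05850* to *POX05858*, 4 were called, all higher, and the log2 fold changes of all 9 lay between 0.82 and 2.55. *POX05856* and *POX05857* were also called, at 2.21 and 2.18, without replicate T of Δ*PoxKu70*. Their lowest values with 1 library left out were 1.071 and 0.937.

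*POX01170* lies among highly expressed genes. From *POX01169*, a FAD-dependent monooxygenase gene, to *POX01177*, which carries the β-ketoacyl synthase entry of polyketide synthases, 8 of 9 genes were called, all higher, with log2 fold changes between 0.89 and 2.39. *POX01169* had a mean of 3627 FPKM in Δ*PoxMKK1* and 850 FPKM in Δ*PoxKu70*, and *POX01177* had 1259 FPKM in Δ*PoxMKK1* and 299 FPKM in Δ*PoxKu70*. *POX01170* had the largest log2 fold change of the 9 genes. Beside *POX04224*, an aminotransferase gene (*POX04225*), a FAD-dependent monooxygenase gene (*POX04226*) and an O-methyltransferase gene (*POX04227*) were called higher, with log2 fold changes of 3.15, 3.49 and 3.51. *POX04226* and *POX04227* had 8 and 9 counts in replicate S of Δ*PoxKu70*, and came to 4.23 and 4.30 when its replicate T was left out. Their lowest values with 1 library left out were 2.989 and 3.015.

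The lower genes listed next had neighbours that were also lower. *POX09336* lies between *POX09335*, a β-ketoacyl synthase gene (log2 fold change -1.61), and the peptide synthetase gene *POX09340* (-1.56), and 8 of the 9 genes from *POX09332* to *POX09340* were called lower. *POX09338* was the exception, at -0.35. *POX02068* lies beside the aromatic prenyltransferase gene *POX02066* (-2.41) and *POX02069* (-1.72), an indoleamine dioxygenase gene with a cytochrome b5 domain, and all 4 genes from *POX02066* to *POX02069* were called lower.

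Beside *POX09355*, 7 of the 8 genes from *POX09354* to *POX09361* were called lower, including *POX09354* (-5.99), the flavin halogenase gene *POX09357* (-2.26) and the glutathione transferase gene *POX09358* (-7.07). *POX09358* had a mean of 42.7 FPKM in Δ*PoxMKK1* and 5459 FPKM in Δ*PoxKu70*. Of the 6 tested neighbours within 3 numbers of *POX09355*, 3 were called lower and 1, outside this run, was called higher. The ends of the runs were set after the values were seen, so their counts describe these stretches of numbers and no more.

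**Figure D4:**
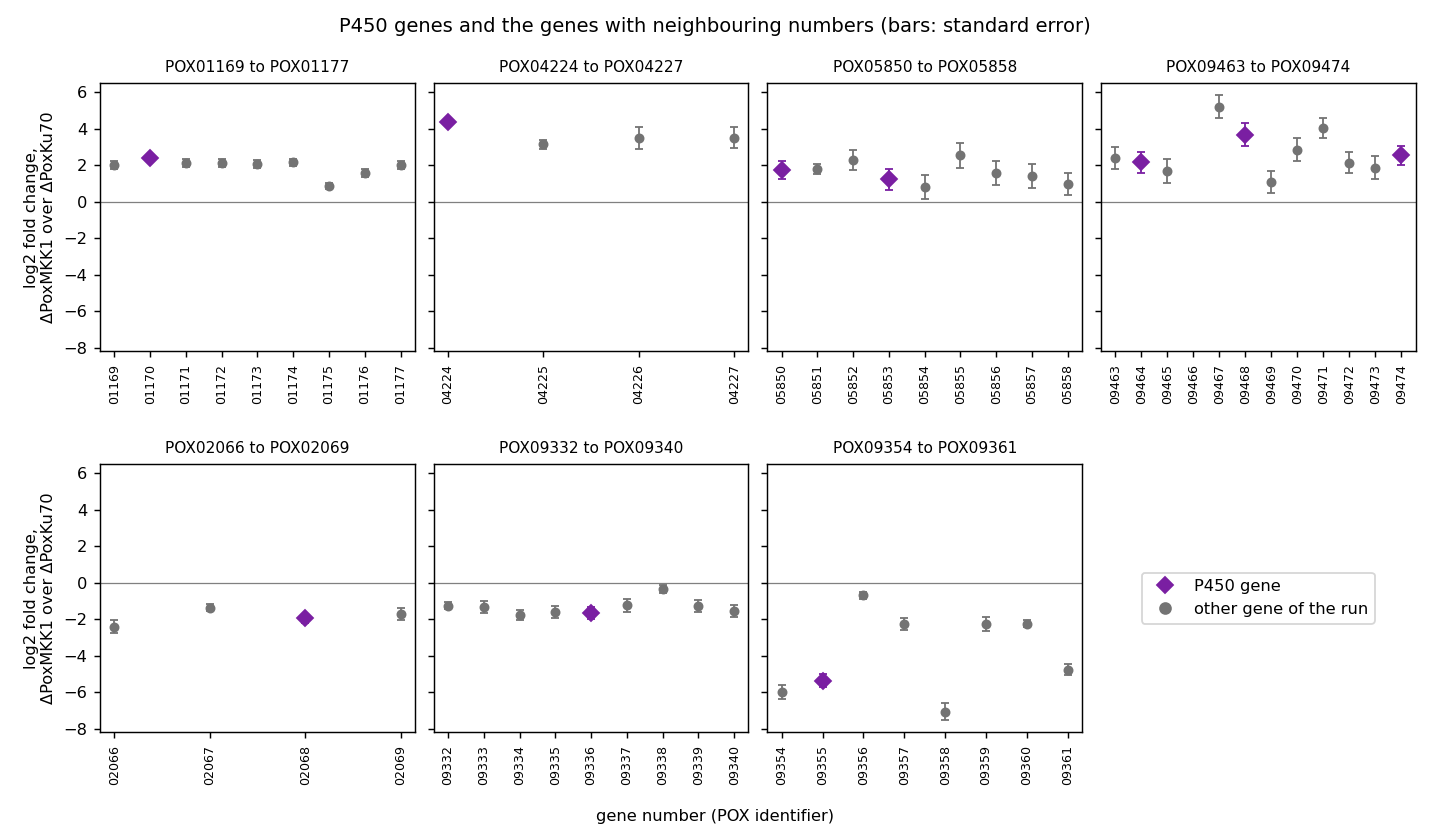
Log2 fold change of Δ*PoxMKK1* over Δ*PoxKu70*, with its standard error, for the genes of 7 runs of consecutive numbers, with P450 genes as diamonds and other genes as circles. Every tested gene drawn has the sign of the P450 genes of its run, from 5.22 for *POX09467* to -7.07 for *POX09358*, with the ends of the runs set after the values were seen.

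Genes with the InterPro entry of a backbone enzyme, a FAD-dependent monooxygenase, a reductase or cytochrome b5 were also described from the study's list. Whether they work with P450 enzymes was not tested, and their counts too come from genes chosen on this contrast. Of the 1114 listed genes 1052 were called (94.4%), against 19.8% of all tested genes (10.8% higher and 8.93% lower), and nothing is read from the counts that follow. Of the 14 listed backbone genes, those for peptide synthetases, ketoacyl synthases, aromatic prenyltransferases and isoprenoid synthases, 10 were called higher and 4 lower, with a median log2 fold change of 1.91. Of these, 7 lie within 5 numbers of a P450 gene, as do 64 of the 1090 listed genes that are not P450 genes (5.87%). Of the 6 FAD-dependent monooxygenase genes, 3 were called higher and 2 lower, and *POX05861* (1.65) was not called, although it was without replicate T of Δ*PoxKu70*, at 2.39. Its lowest value with 1 library left out was 1.14.

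The list held no further gene with the reductase entry IPR003097 by which *POX08079* was classed. It held 3 genes with a cytochrome b5 domain, and whether these carry electrons to a P450 was not tested. *POX03453* was higher, at 75.8 FPKM in Δ*PoxMKK1* and 12.7 FPKM in Δ*PoxKu70* on average (log2 fold change 2.52, standard error 0.214). Besides the cytochrome b5 domain, *POX03453* carries entries of a molybdopterin oxidoreductase (IPR000572 and IPR008335). *POX03806* averaged 350.0 FPKM in Δ*PoxMKK1* and 170.4 FPKM in Δ*PoxKu70* (log2 fold change 0.98, standard error 0.0856), just under the fold minimum. *POX02069* was the lower gene beside *POX02068*.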

How the data were processed

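The 6 RNA libraries, 3 per strain, were read on a BGISEQ-500 instrument and grouped by their sample labels. The authors deposited, for 9834 genes per library, an expected count (an estimate of reads that need not be whole and is not normalized) and an FPKM, which the authors scaled to gene length and mapped reads. The submitters' processing notes name RSEM 1.2.12, Bowtie2 2.1.0, BWA 0.7.10-r789 and DESeq2 with no role, and the HP7-1 genome was the reference. The annotation and any use of strand were not given in the sources used here, so overlapping genes are uncertain. The labels name no separate cultures for the libraries, which the paper calls biological repeats.

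Expected counts were rounded and tested over the whole table by filterByExpr, TMM, glmQLFit and glmQLFTest (edgeR 4.0.16, R 4.3.3) with no replicate block, after the code was tested on simulated data. Standard errors are the size of the log2 fold change over the square root of F. Depth was 13687087 to 14042791 counts per library, and intervals cover counting error only. Implied length was the count over FPKM and library total. The alternatives were DESeq2 1.42.0, limma 3.58.1 on log2(FPKM + 0.5) for genes with a mean of at least 1 FPKM, other scalings, pseudocounts of 0.1 and 1, no filter, a stricter threshold, the replicate block, and each library left out in turn. Tables and plots were made with Python 3.11.15 (pandas 2.3.3, numpy 2.4.6, matplotlib 3.10.9, scipy 1.17.1).

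The members and lists were chosen with earlier results of these data known. All 24 P450 genes are named. Other genes are named if they lie within 3 numbers of a P450 gene, within a run or in a list picked by InterPro entry, or check the labels. *PoxBrlA* and the ends of runs farther off were named after their values were seen. Of the identifiers, 0 matched the RefSeq table, so no position or sequence is given. The study's listed fold values and probabilities were not used.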

Additional observations from a re-analysis of the deposited data

How the results depend on the processing

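No P450 gene changed direction in any of the 14 alternatives run for it. Of these 336 values, 308 kept their side of the call rule, 17 lost the call and 11 gained it. The number of P450 genes called was 21, and it was 23 with DESeq2, 22 with limma on log2(FPKM + 0.5), 22 with library sizes alone (an alternative added after seeing the data), and 16 at an adjusted p below 0.01. With each library left out in turn it lay between 15, without replicate F of Δ*PoxKu70*, and 24, without replicate T of Δ*PoxKu70*, and 15 genes, 5 lower and 10 higher, were called in every such fit. Deviations from the strain mean had correlations of 0.305 for F, 0.029 for S and 0.127 for T between libraries with the same letter. Between unlike letters they ran from -0.339 to 0.142. These values do not settle whether the letters mark pairs, and the main fit did not take them as pairs. With the replicate block 23 P450 genes, 53 neighbours and 1739 of all genes were called, against 21, 54 and 1728 without it. The P450 genes gained with the replicate block were *POX02985* (1.66) and *POX08079* (1.29). The median of all genes moved by less than 0.1 on the log2 scale under the scalings tried. Of neighbours, 23 of 44 tested genes were called at 1 number to each side and 74 of 194 at 5 numbers, where the count follows from how many genes are taken in. *POX01979*, with 12 counts over the control strain, is the member most limited by depth.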

Other observations

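*PoxBrlA* (*POX06534*), a regulator that is known to switch on conidiation in *Aspergillus* and its relatives, had 460.5, 394 and 379 FPKM in Δ*PoxMKK1* (libraries F, S and T), against 29.4, 5.38 and 42.2 FPKM in Δ*PoxKu70*. The gene was picked after its values were seen, because its libraries had the same order as many P450 genes that were higher in Δ*PoxMKK1*: T above F above S in Δ*PoxKu70*, and F above S above T in Δ*PoxMKK1*. The order in Δ*PoxKu70* occurred in 14 of the 24 P450 genes (58.3%) and in 21.8% of the 8841 genes with a mean of at least 1 FPKM. The order in Δ*PoxMKK1* occurred in 9 (37.5%) and in 18.4%, and both together in 8 (33.3%) and in 5.58%. The 8 genes were *POX02985*, *POX04224*, *POX05850*, *POX05853*, *POX05888*, *POX08753*, *POX09468* and *POX09474*. With 3 libraries per strain these orders are a description, and whether the P450 genes follow conidiation in these cultures was not tested.

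The neighbours outside the study's list included genes with large differences. *POX00943*, within 3 numbers of the lower gene *POX00945*, had a mean of 4.11 FPKM in Δ*PoxMKK1* and 0.183 FPKM in Δ*PoxKu70* (log2 fold change 4.36, standard error 0.472, and 5.14 without replicate F of Δ*PoxKu70*). *POX03897*, beside *POX03898* and also outside the list, had 6.39 FPKM in Δ*PoxMKK1* and 0.197 FPKM in Δ*PoxKu70* (log2 fold change 4.90, standard error 0.477, and 5.66 without replicate T of Δ*PoxKu70*).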
